A study of Homo sapiens with 6 samples.

Results

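The 10 genes described here are readouts and carriers of YAP-TEAD transcription, taken by symbol from the 54628 gene symbols counted in each library: CCN1, CCN2, THBS1, ANKRD1, AMOTL1, AMOTL2, LATS2, AJUBA and the coactivator genes YAP1 and WWTR1. The set was chosen by the measured values of CCN1, CCN2 and THBS1, which were lower in the cells that had received mitochondria in these same libraries. The differences of all 10 genes between the groups are therefore given as a description, with no p, and tests are kept for other genes of the pathway. The lists of those genes were also drawn up with earlier results of these data known, so their tests are not independent of this comparison.

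YAP and TAZ, the products of YAP1 and WWTR1, are coactivators without a DNA-binding domain of their own. When the kinases of the Hippo pathway are inactive, YAP and TAZ enter the nucleus, bind the TEAD transcription factors and switch on genes for matrix proteins, growth and the pathway's own inhibitors. When the LATS kinases are active they phosphorylate YAP and TAZ, which are then held in the cytoplasm or degraded. The pathway reads cell contact, stiffness of the surroundings and tension of the actin cytoskeleton, and glioblastoma cells commonly carry YAP and TAZ.

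The libraries hold messenger RNA of U87, a human glioblastoma cell line, flow-sorted after co-culture, and the series title names astrocytes as the source of the mitochondria. The cells are labelled as cycling in both groups, and as having received mitochondria in 3 libraries (received) or not in the other 3 (not received). All 6 libraries share the line, the co-culture and the cycling label. The labels give no treatment, time or gate, and both groups come from 1 cell line. Whether replicates came from separate cultures is not stated, so p-values measure only the spread between these samples, which may be technical. In bulk samples such as these, fewer cells expressing a gene and less RNA per cell cannot be told apart.

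Totals ran from 17879552 to 46392491 counts, and a gene with 3 counts stood at 0.0661 to 0.167 CPM (a gene's count relative to the total of its library), a floor that covers counting error only. Not-received replicate 2 was the deepest library and stood apart from the others of its group on the first principal component (-44.43 against -13.83 and -14.76). Of 6 markers of the line, VIM stood at 4680 and 3918 CPM, CD44 at 871 and 1019 CPM and TNC at 2124 and 1863 CPM, with received cells first. SOX2 was low, at 0.607 and 0.102 CPM (18, 9 and 9 against 2, 9 and 0 counts). It was higher in every received library but did not pass the low-count filter and was not tested. By edgeR's quasi-likelihood test VIM and NES (44.5 and 32.5 CPM) were called higher in received cells (adjusted p = 0.0170 and 0.00274), and CD44 and CHI3L1 (21.4 and 39.9 CPM) lower (adjusted p = 0.0111 and 3.75e-05). The log2 fold change of CHI3L1 was -0.90 ± 0.10. Of 9 astrocyte markers, AQP4, ALDH1L1 and GJB6 had 0 counts in all 6 libraries and GFAP stood at 0.328 and 0.390 CPM. The summed level of the 9 was 37.8 to 41.2 CPM in received and 35.7 to 39.0 CPM in not-received libraries, nearly all of it SLC1A3 and SOX9. SOX9 stood at 23.8 and 19.1 CPM, received cells first, and was called higher (log2 fold change 0.31 ± 0.08, edgeR adjusted p = 0.0198), while SLC1A3, at 15.3 and 17.6 CPM, missed the threshold (edgeR adjusted p = 0.161). Of 6 immune markers 2 had 0 counts throughout and CSF1R gave nearly all of the summed level (20.3 to 22.8 against 20.1 to 21.5 CPM). Counts of 0 in all libraries, here and below, leave a gene's level uncertain rather than shown to be absent. Endothelial and epithelial markers summed to 1.89 to 2.51 CPM in received and 1.96 to 2.29 CPM in not-received libraries. All 6 markers of cycling cells were present, and their sums overlapped between the groups (2258 to 2366 against 2184 to 2494 CPM). Single markers moved in both directions, given with received cells first. CCNB1 was called higher (439 and 384 CPM, edgeR adjusted p = 0.0274). CDK1 was higher in every received library but not called (332 and 281 CPM, edgeR adjusted p = 0.0513). MKI67 (594 and 697 CPM, by a narrow margin), PCNA (100 and 114 CPM) and MCM2 (99.0 and 117 CPM) were lower in every received library. None of these was called (edgeR adjusted p = 0.213, 0.0575 and 0.0543), and TOP2A overlapped. The part of these markers in the results below was not tested.

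The TEAD factors recognise a short element, searched for here on both strands as GGAATG. RefSeq promoter windows (build GRCh38.p14, the 250 bases before each annotated start) matched 9 of the 10 genes, all but CCN1, in 12 windows. The 3 windows below belong to the genes with the lowest received-to-not-received ratios among those 9, and show where such elements lie in them. Capitals mark TEAD elements in all 3. In ANKRD1 they also mark 1 match to TGANTCA, a loose search pattern for the AP-1 site that allows any middle base. The windows lie at chr6:131951373-131951622 on the minus strand for CCN2, chr10:90921088-90921337 on the minus strand for ANKRD1 and chr15:39580829-39581078 on the plus strand for THBS1.
CCN2: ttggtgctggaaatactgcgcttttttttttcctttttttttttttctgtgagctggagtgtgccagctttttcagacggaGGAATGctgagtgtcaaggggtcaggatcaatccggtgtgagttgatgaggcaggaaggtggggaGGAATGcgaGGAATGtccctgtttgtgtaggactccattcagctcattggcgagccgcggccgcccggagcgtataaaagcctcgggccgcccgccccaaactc
ANKRD1: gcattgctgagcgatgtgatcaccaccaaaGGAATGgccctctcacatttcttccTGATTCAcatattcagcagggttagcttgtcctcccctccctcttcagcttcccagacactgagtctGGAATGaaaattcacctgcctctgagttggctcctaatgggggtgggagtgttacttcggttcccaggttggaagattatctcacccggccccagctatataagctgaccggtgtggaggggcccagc
THBS1: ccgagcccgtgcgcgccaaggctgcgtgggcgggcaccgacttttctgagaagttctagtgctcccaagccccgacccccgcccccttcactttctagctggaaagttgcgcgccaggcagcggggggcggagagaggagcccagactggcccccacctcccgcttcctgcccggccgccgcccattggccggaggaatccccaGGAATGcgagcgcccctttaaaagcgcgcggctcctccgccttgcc

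The CCN2 window held 3 elements, starting 169, 104 and 95 bases before the annotated start of the gene. ANKRD1 held 2, at 220 and 128 bases, with the AP-1 match at 195 bases, and THBS1 held 1, at 46 bases. YAP1 had 1 element at 162 bases, and AMOTL2 and AJUBA each had 1 in one of their windows, at 69 and 59 bases. In all, 6 of the 9 genes and 6 of the 12 windows held the element, which is present in 11.9% of 35116 RefSeq windows of the same length. Apart from the coactivator genes YAP1 and WWTR1, the genes were picked as known TEAD targets, so this count is a description. The AP-1 letters occur in 6.57% of windows and the CArG box, the element of serum response factor, in 1.16% and in none of these 12. A missing match says only that these letters are not in this window.

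CCN1 and CCN2 encode secreted matricellular proteins (once called CYR61 and CTGF) and are the standard readouts of YAP-TEAD activity. CCN1 stood at 97.5, 79.6 and 75.9 CPM in not-received replicates 1, 2 and 3 and at 55.8, 51.2 and 58.2 CPM in received replicates 1, 2 and 3. Every received library lay below every not-received library. The group means were 84.4 ± 11.5 and 55.0 ± 3.57 CPM (SD, n = 3 each), a log2 fold change of -0.61 ± 0.09 (SE).

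CCN2 showed a wider gap in relative terms. Its level was 42.8, 43.1 and 39.1 CPM in the not-received libraries and 22.9, 19.1 and 23.6 CPM in the received libraries. The received mean was 52.5% of the not-received mean, a log2 fold change of -0.93 ± 0.09. The coefficient of variation of CCN2 was 5.27% in not-received and 10.9% in received libraries, against 13.7% and 6.48% for CCN1, whose not-received replicate 1 stood highest.

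THBS1 encodes thrombospondin-1, a matrix glycoprotein that binds CD47 and CD36 and can activate latent TGF-beta. It stood at 16.3, 15.4 and 13.9 CPM without received mitochondria and at 8.33, 8.10 and 7.67 CPM with them. The groups did not overlap, and the log2 fold change was -0.92 ± 0.11, close to that of CCN2.

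ANKRD1, a nuclear ankyrin repeat protein and one of the most responsive YAP-TEAD targets, was nearly missing from the received libraries. It had 43, 103 and 26 counts (2.34, 2.27 and 1.25 CPM) in the not-received libraries against 2, 2 and 1 counts (0.0930, 0.107 and 0.0556 CPM) in the received libraries. Each received value lies under the level of 3 counts in its library (0.140 to 0.167 CPM). Summed over the groups, 172 against 5 counts give a 23.6-fold higher rate in not-received cells, with an exact 95% interval of 9.92 to 73.6 that covers counting error only. The fitted log2 fold change, which at such counts depends on the prior count of the fit, was -4.43 ± 0.46. ANKRD1 passed the low-count filter only through the not-received libraries, so it could be tested only because it was higher there.

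**Figure D1:**
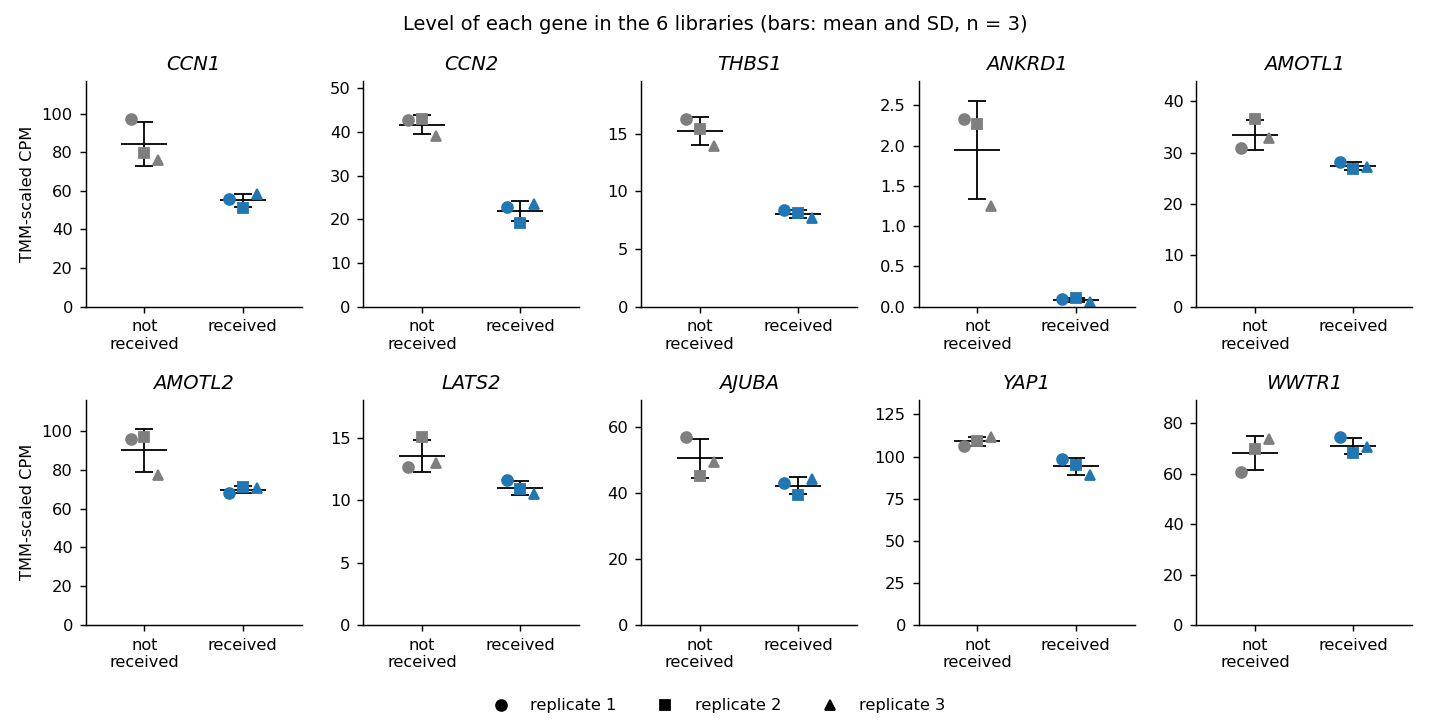
TMM-scaled CPM of each of the 10 genes (vertical axes start at 0 and differ between panels) in the 3 not-received (grey) and 3 received (blue) libraries, with mean and SD, n = 3. For CCN1, CCN2, THBS1 and ANKRD1 the received points lie well below the not-received points, for AMOTL1, AMOTL2, LATS2, AJUBA and YAP1 they lie just below, and for WWTR1 they overlap.

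AMOTL1 and AMOTL2 encode motins, scaffold proteins that bind YAP at cell junctions, and AMOTL2 is itself induced by YAP. AMOTL2 stood at 96.0, 96.9 and 77.2 CPM in not-received and 67.9, 71.0 and 70.5 CPM in received libraries, a log2 fold change of -0.37 ± 0.08. The received libraries were close together (coefficient of variation 2.40%) and the not-received ones were not (12.4%), with replicate 3 the lowest of them. AMOTL1 stood at 30.9, 36.6 and 32.8 CPM against 28.2, 26.8 and 27.2 CPM, a log2 fold change of -0.29 ± 0.08. Its groups were separate by a narrow margin, and the highest value was in not-received replicate 2. AMOT, the third motin gene, had 0 counts in all 6 libraries.

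LATS2, a kinase that phosphorylates YAP and TAZ and is also one of their targets, stood at 12.7, 15.1 and 12.99 CPM in not-received and 11.6, 10.9 and 10.5 CPM in received libraries. Its log2 fold change was -0.31 ± 0.11, and -0.22 without not-received replicate 2. AJUBA, a LIM protein that restrains the LATS kinases, stood at 56.8, 45.0 and 49.4 CPM against 42.8, 39.4 and 44.2 CPM. The lowest not-received value of AJUBA was less than 1 CPM above the highest received value, and its log2 fold change was -0.25 ± 0.09. Leaving out not-received replicate 1 or 2 moved it to -0.16 or -0.33.

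The 2 coactivator genes differed from each other. YAP1 stood at 106, 109 and 112 CPM in not-received and at 98.6, 94.9 and 88.9 CPM in received libraries, a log2 fold change of -0.21 ± 0.06. Its groups did not overlap, and the received mean was 86.3% of the not-received mean. WWTR1 stood at 60.7, 69.9 and 73.8 CPM against 74.4, 68.0 and 70.4 CPM. The WWTR1 groups overlapped, with a log2 fold change of 0.057 ± 0.077 that turned to -0.016 without not-received replicate 1. The ratio of YAP1 to WWTR1 counts, which needs no scaling between libraries, was 1.75, 1.57 and 1.51 in not-received and 1.33, 1.40 and 1.26 in received libraries.

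Over the 10 genes, 9 had a log2 fold change below 0 and all 9 were lower in every received than in every not-received library, where 19.5% of the 14100 genes tested showed such a separation downward. In the fit across all genes 7 of the 10 fell among the 9.67% of genes called lower, a count that ran from 4 (without received replicate 1) to 8 (with the replicate block or no low-count filter) over the 13 alternatives. None was among the 9.21% called higher, there or under any of the 13 alternatives, or higher at an unadjusted p under 0.05. The median log2 fold change of the 10 was -0.34 against -0.0012 over all genes tested. Nothing is read from these counts, since the comparison is the one from which the genes were picked.

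Per length, on the scale of CPM per kilobase of merged exons in a GENCODE annotation, CCN1 was the most abundant of the 10 in both groups (36.8 ± 5.04 in not-received and 24.0 ± 1.56 in received cells, SD, n = 3). In not-received cells YAP1 (19.4 ± 0.480), AMOTL2 (18.8 ± 2.34) and CCN2 (17.8 ± 0.939) followed. AMOTL2 differed from neither of the other two beyond their spread, while YAP1 lay above CCN2 by more than both SDs. WWTR1 (12.7 ± 1.26) and AJUBA (10.6 ± 1.25) came next, with SDs that overlap, then AMOTL1 (3.72 ± 0.327), LATS2 (2.47 ± 0.236), THBS1 (1.96 ± 0.156) and ANKRD1 (0.985 ± 0.309). In received cells the order was the same but for CCN2, which at 9.35 ± 1.02 lay below WWTR1 (13.2 ± 0.610) and within the spread of AJUBA (8.83 ± 0.515). These lengths are approximate, since the sources used here do not name the annotation behind the counts.

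**Figure D2:**
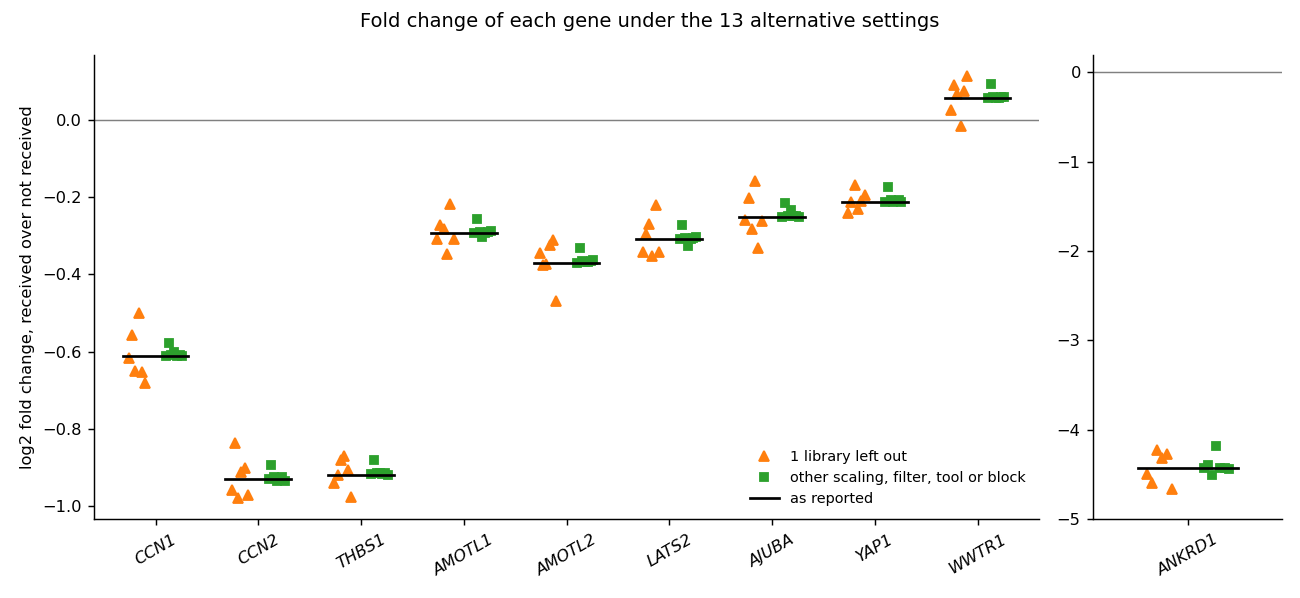
Log2 fold change of each of the 10 genes (received over not received) as reported (black line), with 1 library left out (triangles) and under another scaling, filter, tool or with the replicate number as a block (squares). Only WWTR1 crosses 0, without not-received replicate 1; ANKRD1 has its own axis and runs from -4.66 to -4.18.

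Other genes of a published YAP/TAZ signature, 17 genes without the members, split in direction. Over all 14100 genes tested 9.67% were called lower and 9.21% higher, and each list count here and below stands beside these shares. Of the 16 signature genes tested, 4 fell and 2 rose (edgeR quasi-likelihood test; 4 and 1 by DESeq2). Their median log2 fold change was -0.082, and 0.043 without received replicate 3. CRIM1, a transmembrane protein that binds BMPs, fell from 240 ± 20.1 to 169 ± 4.85 CPM (SD, n = 3 each; log2 fold change -0.51 ± 0.07, edgeR adjusted p = 1.67e-04). MYOF, the membrane repair protein myoferlin, fell by 0.44 ± 0.08 on the log2 scale (edgeR adjusted p = 0.00196), and DOCK5, an activator of the GTPase Rac, fell by 0.35 ± 0.06 (edgeR adjusted p = 0.00232). AXL, a receptor tyrosine kinase, fell from 714 ± 21.4 to 594 ± 10.9 CPM (edgeR adjusted p = 0.00429). The 2 genes that rose were NUAK2, a kinase of the AMPK family (log2 fold change 0.47 ± 0.14, edgeR adjusted p = 0.0362), and FJX1, a secreted regulator named after its value was seen (0.35 ± 0.06, edgeR adjusted p = 0.00217). The call of NUAK2 ended when not-received replicate 1 or 2 or any 1 received library was left out (edgeR adjusted p up to 0.133), and also with DESeq2 and with the replicate block. TGFB2, the ligand TGF-beta 2, averaged 10.4 ± 1.24 CPM with and 13.003 ± 1.09 CPM without received mitochondria and was not called (edgeR adjusted p = 0.0744). FOXF2 had 0 counts.

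**Figure D3:**
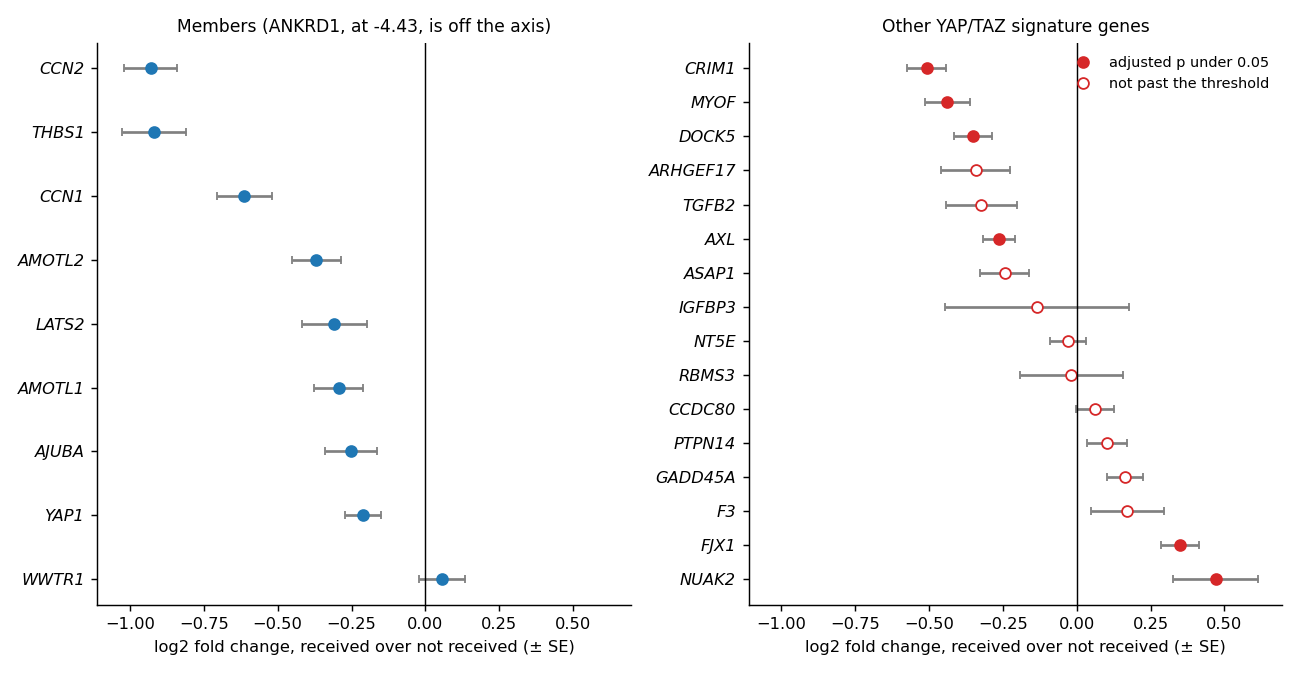
Log2 fold change with SE (received over not received) of the members on the left and of the 16 tested genes of the YAP/TAZ signature on the right, where filled points are past an adjusted p of 0.05. The members run from -0.93 (CCN2) to 0.057 (WWTR1) with ANKRD1 off the axis, and the signature genes run from -0.51 (CRIM1) to 0.47 (NUAK2).

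Levels of the DNA-binding partners of YAP and TAZ overlapped between the groups. TEAD1 averaged 124 ± 6.75 CPM with and 124 ± 9.77 CPM without received mitochondria, and in the same order TEAD3 averaged 35.1 ± 2.92 and 36.1 ± 1.87 CPM, TEAD4 30.3 ± 3.30 and 33.5 ± 0.669 CPM and TEAD2 9.09 ± 0.626 and 10.05 ± 0.805 CPM (SD, n = 3 each). None of the 4 was called (edgeR adjusted p = 0.988, 0.744, 0.252 and 0.400). VGLL4, which competes with YAP for the TEADs, was the 1 gene of 7 tested in its list that fell (log2 fold change -0.34 ± 0.09, edgeR adjusted p = 0.0214). That call was lost without any 1 received library or not-received replicate 2 (edgeR adjusted p up to 0.103). None of the 7 rose by edgeR, DESeq2 or limma-voom, or at an unadjusted p under 0.05.

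The core kinase genes upstream of YAP were not called either. STK3 and STK4, the MST kinases that start the cascade, stood at 24.9 and 92.3 CPM in received and 24.7 and 92.0 CPM in not-received cells. LATS1, the partner of LATS2, stood at 22.7 ± 0.921 and 22.6 ± 1.99 CPM, and the scaffold gene SAV1 at 24.0 ± 1.09 and 25.6 ± 2.03 CPM. The edgeR adjusted p of STK3, STK4, LATS1 and SAV1 was 0.926, 0.980, 0.983 and 0.482. Of 19 Hippo kinases and adaptors tested 3 fell and 0 rose by edgeR (3 and 0 by DESeq2; 0 rose at an unadjusted p under 0.05): the kinase genes TAOK2 (-0.36 ± 0.07, edgeR adjusted p = 0.00485), STK38 (-0.22 ± 0.06, 0.0244) and MINK1 (-0.26 ± 0.08, 0.0483). Over all 14100 genes tested 9.67% were called lower, so a count of 3 is not read as a result about the list. With 1 library left out the count was 1 to 3, TAOK2 being past the threshold each time.

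Genes of the junction and polarity inputs gave 3 lower and 0 higher of 16 tested by edgeR (4 and 0 by DESeq2; 1 higher at an unadjusted p under 0.05). Among those called were WWC3 of the KIBRA family (log2 fold change -0.26 ± 0.07, edgeR adjusted p = 0.0184) and RASSF1 (-0.32 ± 0.10, 0.0360). Beside the 9.67% of all genes tested that were called lower, this count is not read as a result about the list either. The count was 0 without received replicate 1 and 1 without received replicate 2 or 3. NF2, the tumour suppressor merlin that recruits the LATS kinases to the membrane, averaged 84.9 ± 6.73 CPM with and 77.05 ± 7.71 CPM without received mitochondria and was not called (edgeR adjusted p = 0.237). Of 13 tested genes of STRIPAK, the phosphatase complex that opposes the MST kinases, 0 were called by edgeR, DESeq2 or limma-voom, and 1 was higher and 3 lower at an unadjusted p under 0.05. STRN4 (-0.18 ± 0.07) and STRIP2 (-0.19 ± 0.07) came nearest, with edgeR adjusted p = 0.0768 and 0.0816. AMOT, SCRIB and ZYX had 0 counts in all 6 libraries, so their levels are uncertain rather than shown to be absent.

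Relatives of the secreted members did not all follow them. CCN3 fell from 59.1 ± 1.33 to 46.1 ± 1.29 CPM (edgeR adjusted p = 0.00228), while CCN4, at 9.59 CPM with and 11.2 CPM without received mitochondria, was not called (edgeR adjusted p = 0.190). THBS2, the closest relative of THBS1, rose from 50.8 ± 6.14 to 81.3 ± 3.82 CPM (log2 fold change 0.67 ± 0.08, edgeR adjusted p = 1.34e-04), and THBS4, named after its value was seen, rose from 0.802 to 2.18 CPM (edgeR adjusted p = 0.00469). Among the receptors of these proteins the integrin genes ITGA6 (-0.66 ± 0.08, edgeR adjusted p = 1.47e-04) and ITGB5 (-0.38 ± 0.06, edgeR adjusted p = 6.71e-04) fell. The other integrin genes of the list, named after their values were seen, were not called. Their log2 fold changes were 0.17 for ITGA5 (edgeR adjusted p = 0.0525), 0.14 for ITGB1, 0.12 for ITGAV and -0.046 for ITGB3. CD47 averaged 158 CPM with and 161 CPM without received mitochondria. In this list of 15 tested genes 2 rose and 3 fell, and 5 rose without not-received replicate 2.

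CCN1, CCN2 and THBS1 are also targets of serum response factor (SRF) and its actin-sensing MRTF coactivators, so genes of that route were examined. Of 19 tested, 9 fell and 0 rose by edgeR's quasi-likelihood test (11 and 0 by DESeq2; 0 rose at an unadjusted p under 0.05), and 7 to 10 fell with 1 library left out. The median log2 fold change was -0.21 against -0.0012 over all genes. The actin-binding protein genes TAGLN and TPM1 fell by 0.89 ± 0.13 and 0.59 ± 0.06 on the log2 scale (edgeR adjusted p = 0.00118 and 3.07e-05), from 38.0 ± 6.34 to 20.4 ± 2.66 CPM and from 411 ± 27.3 to 273 ± 9.02 CPM (SD, n = 3 each). The myosin light chain gene MYL9 fell by 0.42 ± 0.08 and VCL, vinculin, by 0.41 ± 0.07 (edgeR adjusted p = 0.00274 and 0.00120). SRF itself fell from 111 ± 8.40 to 87.9 ± 4.70 CPM (edgeR adjusted p = 0.00466). The remaining 4, picked out once their values were known, were CALD1, TPM2, TGFB1I1 and FHL2, with FHL2 not called without any 1 received library and TGFB1I1 not without received replicate 2. In all 10 genes of the list were not called, among them MRTFA and MRTFB (edgeR adjusted p = 0.651 and 0.738). The other uncalled genes, named after their values were seen, were ACTA2, CNN1, CNN2, TPM4, FLNA, ACTB, ACTN1 and ACTG1. The log2 fold changes of the uncalled genes ran from -0.21 (FLNA) to 0.065 (ACTG1, the 1 gene of the list above 0).

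THBS1 and both CCN genes respond to TGF-beta as well. Of 13 genes of a TGF-beta response list 3 rose and 4 fell (edgeR; 3 and 4 by DESeq2). PMEPA1, which dampens TGF-beta signalling, rose from 22.2 ± 1.92 to 34.4 ± 3.95 CPM (edgeR adjusted p = 6.61e-04). SMAD7, the inhibitory SMAD, fell from 12.9 ± 0.973 to 6.83 ± 0.4998 CPM (edgeR adjusted p = 1.64e-04) and BAMBI, a decoy receptor, by 0.83 ± 0.17 on the log2 scale (edgeR adjusted p = 0.00431).

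The genes whose profile over the 6 libraries lay nearest to that of a member were sought by root-mean-square distance between gene-centred log2 CPM, a measure that mixes the group difference with the spread of replicates. Nearest to CCN1 were ATF5 (0.0215), PORCN (0.0229) and HSPB8 (0.0428). Nearest to CCN2 were PLEKHG4B (0.0725), NOTUM (0.0888) and PLPP4 (0.0946). Nearest to THBS1 were SMAD7 (0.0409), CAP2 (0.0506) and IER5L (0.0507).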

How the data were processed

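The deposited tables pair gene symbols with raw read counts, unnormalized whole numbers, a table for each library. DESeq and R 3.6.1 are named in the submitters' processing notes. No source used here names the aligner, counting program, build or annotation, so how reads shared by related, overlapping or antisense genes (WWTR1-AS1, AJUBA-DT) were assigned is unknown. Each library's group was taken from its title.

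Low-count genes were removed by filterByExpr in edgeR 4.0.16, which left 14100 of the 28833 genes with a count. TMM scaling, glmQLFit (robust = TRUE) and glmQLFTest followed, in R 4.3.3, with group as the model's one term. Benjamini-Hochberg adjustment ran over all 14100 genes, and an adjusted p under 0.05 is a call. CPM are TMM-scaled, and each SE comes from dividing the absolute log2 fold change by the square root of F. The steps were tested on simulated counts. The members and gene lists were chosen with earlier results of these data known. Named were all members, then per list up to 4 called genes whose mean log2 CPM reached 1, by absolute fold change, or the 2 with the smallest p where none was called. Also named were TEAD1, TEAD2, TEAD3, TEAD4, VGLL4, LATS1, STK3, STK4, SAV1, NF2, AMOT, SRF, AXL and TGFB2, and the 3 nearest profiles of CCN1, CCN2 and THBS1 (log2 of CPM + 0.5). Some genes that this rule names are not reported here. Alternatives were RLE factors, library size alone, DESeq2 1.42.0, limma-voom (limma 3.58.1), no low-count filter, at least 1 CPM in at least 3 samples, the replicate number as a block, and each library left out.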

Additional observations from a re-analysis of the deposited data

How the results depend on the processing

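The members, the named pathway genes that could be tested and every other called gene of the lists, 56 genes in all, were followed through the 13 alternatives. Of their 728 values 662 kept their direction and their side of the threshold, and 16 changed direction, none of them of a called gene. The rest kept their direction but crossed the threshold, nearly all by losing a call. MINK1 and NUAK2 each lost theirs in 7 of the 13 alternatives, RASSF1 in 6, and STK38 and YAP1 each in 5. AJUBA, not called with all 6 libraries, passed the threshold in 3. With 1 library left out the log2 fold change ran from -0.016 to 0.12 for WWTR1, -0.046 to 0.067 for TEAD1, -0.089 to 0.025 for TEAD3, -0.057 to 0.072 for LATS1, -0.025 to 0.069 for STK3 and -0.058 to 0.044 for STK4. Apart from these, TEAD1 turned to -0.00125 with limma-voom, and LATS1 to 0.034 with library size alone, 0.00141 with DESeq2 and 0.00242 with the replicate block. The cause was not tested.

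With 1 library left out, 604 to 1356 genes were called higher and 691 to 1579 lower (1298 and 1364 with all 6), the low counts being those without a received library. The same fits gave 4 to 7 members lower, 1 to 2 signature genes higher, 0 to 1 of the TEAD list lower, 1 to 3 Hippo kinases and adaptors lower, 0 to 4 junction and polarity genes lower, 0 to 1 STRIPAK genes higher and 2 to 5 CCN and thrombospondin relatives and receptors higher. Without a low-count filter 2084 genes were called lower and 5 of the junction and polarity genes. DESeq2 called 1 signature gene higher. Library size alone called 1 Hippo kinase lower and 1 junction gene higher, and 60.3% of all calls were then higher against 48.8%.

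Same-numbered libraries had deviations from their group means that correlated at -0.200, -0.0680 and 0.0535, and differently numbered libraries at -0.188 to 0.254. With 3 libraries in each group these values cannot show whether the samples were paired. The fit with the replicate number as a block called 1 signature gene higher and 5 junction genes lower, and gave log2 fold changes of -0.61, -0.94 and -0.92 for CCN1, CCN2 and THBS1. ANKRD1, with 5 counts in all in received cells, is where depth limits the size of the difference.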

Other observations

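Ratios of counts within a library need no scaling between libraries. CCN1 over CCN2 was 2.28, 1.85 and 1.94 in not-received replicates 1, 2 and 3 and 2.44, 2.67 and 2.47 in received replicates 1, 2 and 3, so the groups did not overlap. THBS1 counts were 38.1%, 35.8% and 35.5% of CCN2 counts in not-received and 36.4%, 42.3% and 32.5% in received libraries, which overlapped. AMOTL2 over AMOTL1 was 3.11, 2.65 and 2.35 against 2.41, 2.65 and 2.59, which overlapped as well. These ratios come from the same comparison as the members and are values with no test.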
